A study of Mus musculus with 2 samples.

Results

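The genes described here are the 6 mouse microRNA (miRNA) genes of the Mir99, Mir100 and Mir125 family, namely Mir99a, Mir100, Mir99b, Mir125b-2, Mir125b-1 and Mir125a. They were taken by gene symbol from a count table of 1973 miRNA genes, and all 6 had a row. Small RNA under 30 bases was sequenced from midbrain of B6NCrl mouse embryos at 15.5 days of development, with male and female embryos pooled. The only group had 2 biological replicates, replicate 1 from 78 embryos and replicate 2 from 62 embryos, and no treatment or genotype was contrasted. Each pool is thus a mixture of all cell types of the dissected region, and a lower count from fewer cells of a type cannot be told apart from a lower count per cell. The design therefore asks how much of the midbrain miRNA reads the family held, how that amount was divided among its genes, and how well the pools matched.

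The miR-99/100 and miR-125 families are old in animals, and in Drosophila a single transcript carries miR-100, let-7 and miR-125. Mammals have several paralogous copies of that arrangement, each with a miR-99 or miR-100 gene, a let-7 gene and a miR-125 gene. The miR-125 family is the vertebrate counterpart of lin-4 of Caenorhabditis elegans, a regulator of developmental timing, and it is known to act on Lin28a, whose protein blocks let-7 maturation. The miR-99/100 family is known in mammalian cells for repressing components of the mTOR and insulin-like growth factor pathway. A miRNA finds its targets mainly through its seed, bases 2 to 8 of the mature strand.

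The mature sequences of all 6 genes were found in the RefSeq table (GRCm38.p6). They are shown because the 2 seeds and the few bases outside them separate the genes whose counts are compared. Seeds are in capitals, and each line gives the strand from the 5′ arm of the hairpin (5p), 5′ to 3′.
miR-99a-5p (Mir99a): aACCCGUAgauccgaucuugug
miR-100-5p (Mir100): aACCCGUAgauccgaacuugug
miR-99b-5p (Mir99b): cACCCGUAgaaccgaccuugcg
miR-125a-5p (Mir125a): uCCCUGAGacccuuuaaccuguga
miR-125b-5p (Mir125b-1 and Mir125b-2): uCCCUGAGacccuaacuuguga

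Counted from 1 at the 5′ end, miR-99a-5p and miR-100-5p differ at 1 of 22 positions (U16A) and share their first 15 bases. A read that ends within those bases could come from either gene. miR-99b-5p differs from miR-99a-5p at 4 positions (A1C, U11A, U16C and U21C), none of which lies in the seed. miR-125a-5p has 24 bases and miR-125b-5p has 22, and they share the first 13. The seed ACCCGUA occurred in 3 of 1738 mature mouse sequences of the table (0.173%), and those 3 were the miR-99/100 members. The seed CCCUGAG occurred in 6 (0.345%), which came from the 3 miR-125 members and from Mir351, Mir6367 and Mir6394.

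Mir125b-1 and Mir125b-2 give the same 5p strand. The annotated Mir125b-1 gene (GENCODE M21, mm10, plus strand) is shown because the bases it shares limit what a count of either gene can mean. The longest run it has in common with Mir125b-2 is in capitals.
Mir125b-1, chr9:41581926-41582002: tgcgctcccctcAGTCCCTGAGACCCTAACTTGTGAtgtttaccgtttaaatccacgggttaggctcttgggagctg

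The shared run is 24 bases and holds all of miR-125b-5p, so a read made only of those bases has more than 1 mapping place. Such reads are tallied apart in the deposited tables and are given to no gene. What remains for each Mir125b gene are reads that reach past the shared run, or reads of the strand from the 3′ arm (3p), which differs between the copies. Those 3p strands differ at 5 of 22 positions. The counts do not separate 5p from 3p reads, so the part of each was not tested. Of stretches of 20 bases, 5 of 52 in Mir125b-2 and 5 of 58 in Mir125b-1 occur in another annotated miRNA gene, in each case the other Mir125b copy. For Mir99a, Mir100, Mir99b and Mir125a the number was 0 of 46, 61, 51 and 49. No genome sequence was used here, so copies outside annotated miRNA genes were not searched.

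**Figure D1:**
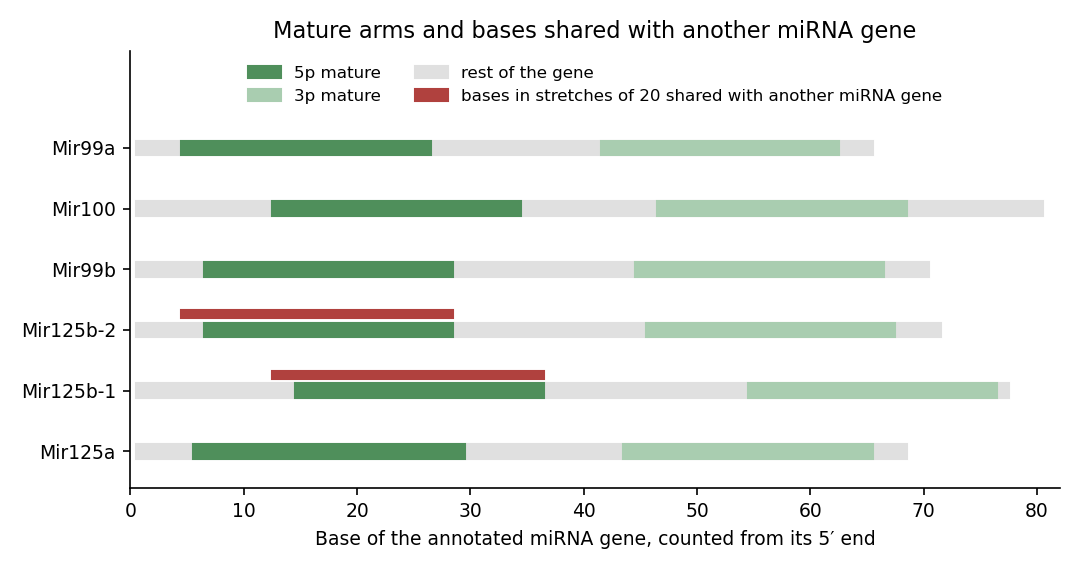
Annotated miRNA genes of the 6 members, one per row, with base position from the 5′ end on the x axis; green blocks are the mature strands and red bars mark bases that lie in stretches of 20 bases shared with another miRNA gene. Red bars appear over Mir125b-2 and Mir125b-1, where they cover the 24 bases around the 5p strand, and over no other member.

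The sense-strand counts of miRNA genes totalled 3429704 in replicate 1 and 5752476 in replicate 2, out of 7557669 and 13115314 reads listed. Levels are given as CPM, sense counts scaled to a total of 1e+06 per library, so that a single count equals 0.292 CPM in replicate 1 and 0.174 CPM in replicate 2. The neural miRNA list summed to 23287 and 24775 CPM in replicates 1 and 2. Of its 12 members, 11 had a row under their symbol, and 10 were at 1 CPM or more in both libraries. Its members were uneven, with Mir137 at 10800 and 11585 CPM. The Mir124a genes had only 0.522 to 4.08 CPM and Mir9-2 had 1.75 and 1.56 CPM. Whether reads shared between gene copies lowered these was not tested. The skeletal and cardiac muscle list summed to 11.7 and 16.0 CPM, all from Mir206; its 3 counted members at 0 have further gene copies with the same mature strand, whose shared reads are given to no gene, so those zeros do not show that muscle RNA was absent. Mir126a, known from endothelium, was at 24909 and 21568 CPM. The mural cell list summed to 6392 and 5868 CPM, of which Mir143 had 6322 and 5794 CPM. The red cell list summed to 197 and 208 CPM and the white cell and microglia list to 334 and 319 CPM. Of the 4 members of the white cell and microglia list, 3 had a row under their symbol. The epithelium list summed to 620 and 743 CPM, with 5 of 6 members at 1 CPM or more in both libraries. Most of that sum was Mir203, at 568 and 635 CPM, and Mir205 had 17.8 CPM in replicate 1 and 57.9 CPM in replicate 2. The liver list had 43.2 and 76.1 CPM. The part of these cells in the levels below was not tested.

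The 6 members together held 31.6% of sense counts in replicate 1 (95% exact interval 31.58 to 31.68) and 29.1% in replicate 2 (29.02 to 29.09), or 30.3 ± 1.82% (SD, n = 2). Intervals cover counting error only. The difference between the pools is far wider than the intervals. With Mir99a left out of both sides of the fraction, the other 5 genes held 10.5% and 10.1%. As a share of every read listed, including reads given to no gene, the members held 13.5 ± 1.14%.

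Among members with the miR-99/100 seed, Mir99a stood first. It had 808795 counts in replicate 1 and 1214022 in replicate 2, which is 235821 and 211043 CPM. It was the highest of the 1973 genes in both libraries, among reads given to a gene. The next, Mir100, had 150203 and 244741 counts, or 43795 and 42545 CPM, and ranked 4 by mean. Mir99b had 88765 and 149507 counts, or 25881 and 25990 CPM, and ranked 9. None of these 3 genes overlapped another in CPM. Whether different miRNA sequences are turned into reads equally well was not tested, here or in the comparisons between genes below. Mir99a exceeded Mir100 by 5.38-fold in replicate 1 and 4.96-fold in replicate 2, and Mir100 exceeded Mir99b by 1.69-fold and 1.64-fold. Mir100 and Mir99a are the pair told apart by a single base.

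The miR-125 members were lower. Mir125a, whose 5p strand occurs in no other miRNA of the table, had 21541 counts in replicate 1 and 37338 in replicate 2, or 6281 and 6491 CPM. It ranked 29 by mean. Mir125b-2 had 7642 and 13227 counts, or 2228 and 2299 CPM. Mir125b-1 had 7764 and 12638 counts, or 2264 and 2197 CPM. The Mir125b copies swapped order between the libraries. Mir125b-2 over Mir125b-1 was 0.984 in replicate 1 (95% counting interval 0.954 to 1.02) and 1.05 in replicate 2 (1.02 to 1.07), so their levels could not be separated beyond the replicate spread. Mir125a exceeded Mir125b-2 by 2.82-fold in each library, but the comparison leaves out reads shared by the Mir125b copies. Reads with several mapping places, from all miRNAs and other RNA together, outnumbered the Mir125b counts by 185 to 1 in replicate 1 and 182 to 1 in replicate 2. How many of them were miR-125b was not tested, so both Mir125b levels are lower limits on the reads of each gene.

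**Figure D2:**
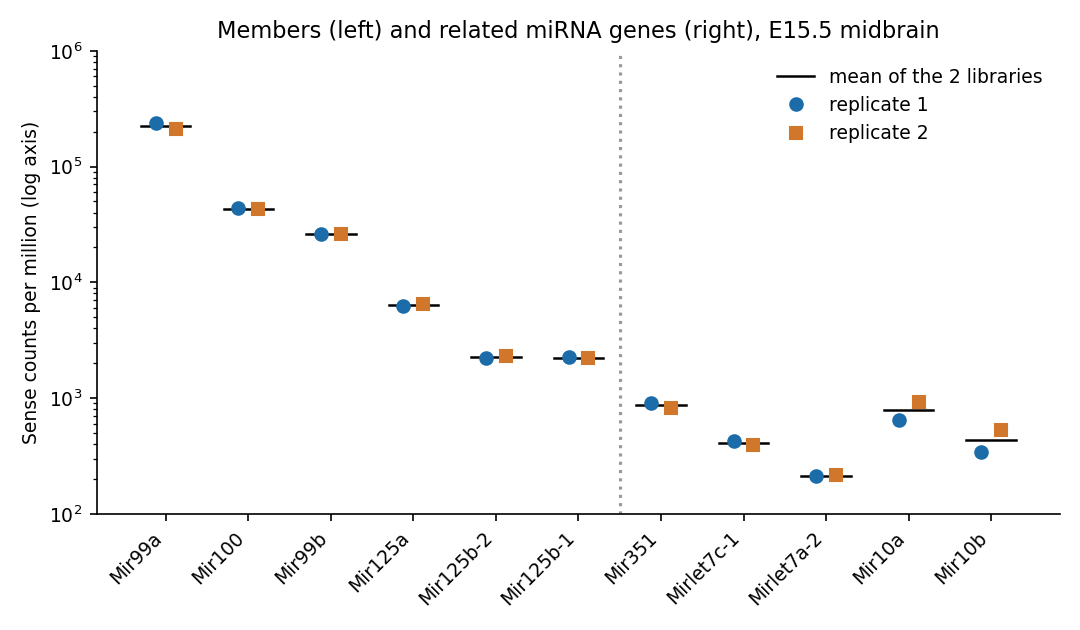
Sense CPM (log axis) of the 6 members, left of the dotted line, and of related genes, right of it; circles are replicate 1, squares replicate 2 and bars the mean of both libraries. The members run from Mir99a at 235821 and 211043 CPM to the overlapping Mir125b copies at 2197 to 2299 CPM, and the replicates of each member lie close together.

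Set against all miRNA genes by reads given to a gene, most members had close neighbours in level. Reads with several mapping places are left out, so a miRNA with several gene copies may rank too low. No gene was near Mir99a in these counts, as the gene below it, Mirlet7g, had 60001 and 57696 CPM. Mir100 lay below Mir335 (54127 and 61503 CPM) and above Mirlet7i (37207 and 34496 CPM) in both libraries, without overlap. Mir99b could not be ordered against Mir17, which had 24783 CPM in replicate 1 and 27113 CPM in replicate 2. Mir125a overlapped Mirlet7d (6839 and 5932 CPM), a let-7 gene outside these clusters, and lay below Mir322 (7138 and 7670 CPM) in both libraries. The Mir125b copies overlapped each other. Mir125b-2 overlapped Mir107 (2255 and 2325 CPM), and Mir125b-1 overlapped Mir449a (2268 and 2125 CPM), so their ranks of 69 and 70 are not fixed by these data.

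**Figure D3:**
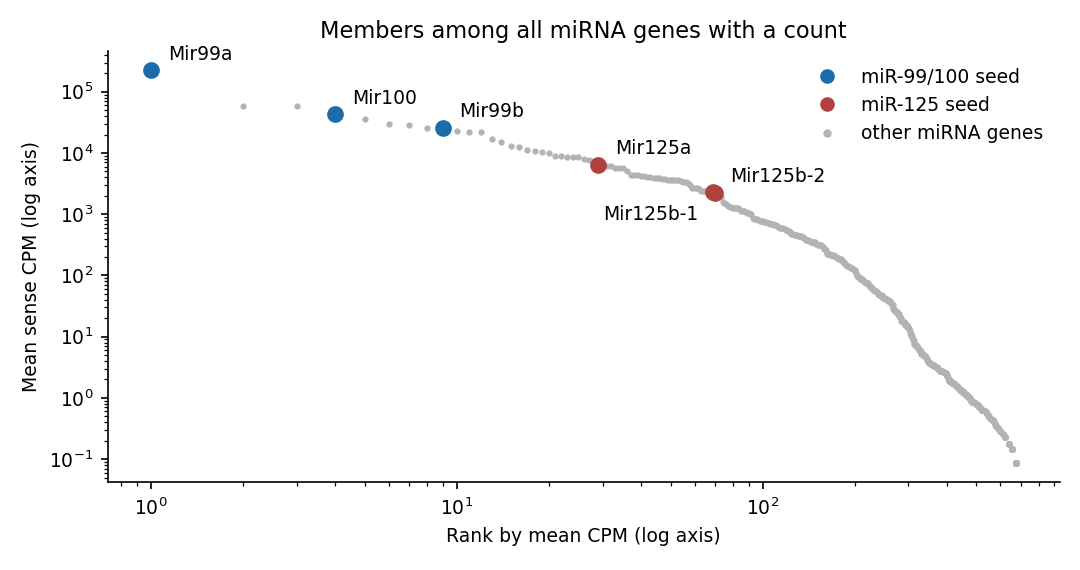
Mean sense CPM against rank by mean CPM, both on log axes, for miRNA genes with a count; blue points carry the miR-99/100 seed, red points the miR-125 seed and grey points are other genes. Mir99a stands apart at the top, Mir100 and Mir99b rank 4 and 9, and the miR-125 genes lie at ranks 29, 69 and 70.

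By seed, ACCCGUA genes made up 96.4 ± 0.265% (SD, n = 2) of the family's counts and CCCUGAG genes 3.59 ± 0.265%. Of all sense counts, the genes with these seeds held 29.3 ± 1.83% and 1.09 ± 0.0152%. The second value leaves out reads common to the Mir125b copies. Both values are of whole genes and include any reads of the other hairpin arm, whose strands carry other seeds. For the Mir125b copies, what remains are reads that reach past the shared run or reads of that other arm. The part of reads that bear ACCCGUA or CCCUGAG was thus not tested. Genes outside the family added little to the counts of CCCUGAG genes. Mir351, of the Mir322 cluster on the X chromosome, had 907 and 817 CPM, below each miR-125 member in both libraries, and Mir6367 and Mir6394 had 0 counts in both. With 0 counts the level in reads given to a gene could be up to 0.875 CPM in replicate 1 and 0.522 CPM in replicate 2, a floor of 3 counts. Reads with several mapping places are left out of that limit.

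The Mir10 genes of the Hox clusters resemble the miR-99/100 sequences but have the seed ACCCUGU. miR-10a-5p shares a run of 10 bases with miR-99a-5p. Mir10a had 649 CPM in replicate 1 and 917 CPM in replicate 2. Mir10b had 339 and 532 CPM. Mir99b, the lowest of the miR-99/100 genes, exceeded Mir10a by 39.9-fold and 28.3-fold. The Mir10 genes also differed more between the pools than any member did, as the replicate ratios below show.

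The 6 genes lie in 3 clusters on the plus strand, each holding a miR-99/100 gene, a let-7 gene and a miR-125 gene in that order (mm10). On chromosome 16, Mir99a spans 77598936 to 77599000 and Mir125b-2 spans 77646273 to 77646343, with Mirlet7c-1 between them. All 3 are in introns of the noncoding gene Mir99ahg on the same strand, and Mir125b-2 also overlaps an exon of C130023A14Rik, a locus that GENCODE has not classified. Mir99a and Mirlet7c-1 also lie opposite an intron of the protein-coding gene Gm11146. On chromosome 9, Mir100 spans 41531425 to 41531504 and Mir125b-1 spans 41581926 to 41582002, with Mirlet7a-2 between them. These are intronic in the noncoding gene 3110039I08Rik, which RefSeq lists as a synonym of Mir100hg, and in the noncoding gene Gm49317 on the same strand. Mir125b-1 also overlaps an exon of the sense-intronic gene Gm28119. Mir100 lies opposite an exon of the noncoding gene Gm48742, and it had 0 counts on that strand in both libraries. On chromosome 17, Mir99b spans 17830188 to 17830257 and Mir125a spans 17830812 to 17830879. Both are within Spaca6, a protein-coding gene known for its role in sperm. Mir99b is intronic there, while Mir125a overlaps an exon in 1 of the 3 Spaca6 transcripts that span it. The outer genes are 47.3 kb apart on chromosome 16 and 50.4 kb apart on chromosome 9, but 554 bases apart on chromosome 17.

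The clusters held unequal parts of the family. Mir99a and Mir125b-2 on chromosome 16 made up 74.3 ± 1.30% of it (SD, n = 2), Mir100 and Mir125b-1 on chromosome 9 made up 15.0 ± 0.591%, and Mir99b and Mir125a on chromosome 17 made up 10.7 ± 0.714%. Replicate 1 had the larger chromosome 16 part, at 75.3% against 73.4% in replicate 2. The chromosome 17 part was 10.2% in replicate 1 and 11.2% in replicate 2. Of all sense counts, the chromosome 17 pair took 3.22% and 3.25%, the closest match of the clusters. Every part above leaves out reads shared by the Mir125b copies of chromosomes 16 and 9. How those reads would change the parts was not tested, and the SDs do not cover it.

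Genes of the same cluster differed widely in counts. Mir99a exceeded Mir125b-2 by 106-fold in replicate 1 and 91.8-fold in replicate 2, a mean log2 ratio of 6.62 ± 0.145 (SD, n = 2). Mir100 exceeded Mir125b-1 by 19.3-fold and 19.4-fold (4.27 ± 0.00101). Mir99b exceeded Mir125a by 4.12-fold and 4.004-fold (2.02 ± 0.0293). The log2 ratios were taken with 1 CPM added to each gene. The order of the clusters by this ratio was the same in both libraries, with gaps much larger than the replicate spread. With 2 libraries no permutation test can pass the threshold, and none was run. In CPM per base of annotated gene the log2 ratios were 6.75, 4.22 and 1.98. Only the chromosome 17 ratio compares genes that both have a mature 5p strand of their own, and in the other ratios the reads shared by the Mir125b copies are left out of the denominator.

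**Figure D4:**
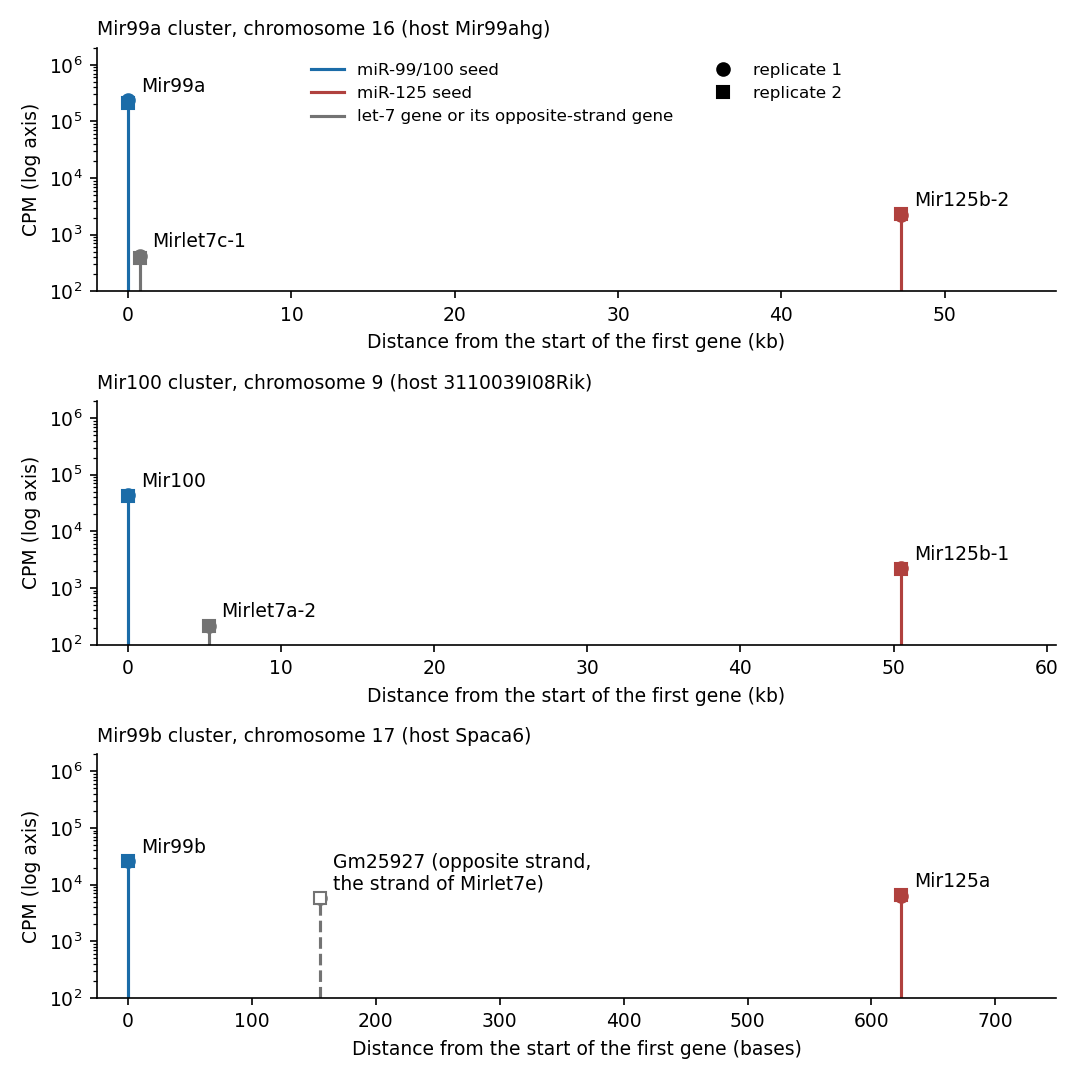
CPM (log axis) of the miRNA genes of each cluster against distance from the start of its first gene, in kb for chromosomes 16 and 9 and in bases for chromosome 17; circles are replicate 1 and squares replicate 2, blue marks the miR-99/100 seed, red the miR-125 seed and grey the let-7 position. The miR-99/100 gene is the highest of each cluster, and the open grey symbol is the opposite-strand count of Gm25927.

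The let-7 genes between them, whose products are known to accumulate as cells differentiate, had far fewer counts on chromosomes 16 and 9. Mirlet7c-1 had 425 and 389.6 CPM in replicates 1 and 2. Mir99a, 656 bases upstream, exceeded it by 555-fold and 542-fold. Mirlet7a-2 had 211 and 215 CPM, and Mir100 exceeded it by 207-fold and 198-fold. These let-7 genes share their 5p strand with other let-7 genes, and together they held 0.545 ± 0.00415% of the counts of the let-7 family. Of the 12 let-7 genes considered, 10 were counted. Mirlet7e and Mirlet7f-1 had no row under those symbols, so the family total leaves them out. Mirlet7g and Mirlet7i (37207 and 34496 CPM), which lie outside the clusters, led the family. Both let-7 levels above are lower limits for the same reason as for Mir125b.

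On chromosome 17, Mirlet7e has no row of its own in the count table. The miRNA gene Gm25927 is annotated on the minus strand at 17830343 to 17830459, across the whole of Mirlet7e at 17830352 to 17830444. Gm25927 had 0 sense counts in either library. On its opposite strand, which is the strand of Mirlet7e, it had 19619 counts in replicate 1 and 33136 in replicate 2, equal to 5720 and 5760 CPM on the sense scale. Mir99b exceeded that count by 4.52-fold and 4.51-fold, and Mir125a by 1.10-fold and 1.13-fold. No stretch of 20 bases of Mirlet7e occurs on the same strand of another miRNA gene. On chromosome 17 the let-7 position was thus near the miR-125 gene in counts, whereas Mir125b-2 exceeded Mirlet7c-1 by 5.24-fold and 5.90-fold and Mir125b-1 exceeded Mirlet7a-2 by 10.7-fold and 10.2-fold, in pairs where both genes lose shared reads.

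Between the pools the members differed by at most 1.14-fold. Ratios are of replicate 1 over replicate 2 after TMM scaling, which allows for a few genes taking a large share, and are on the log2 scale with 1 CPM added. Mir99a was 1.14-fold higher in replicate 1 (log2 ratio 0.19, 95% counting interval 0.190 to 0.198), the widest gap among the members. Mir100 and Mir125b-1 were 1.05-fold higher in replicate 1, with log2 ratios of 0.075 (0.066 to 0.085) and 0.077 (0.036 to 0.118). Mir99b had a log2 ratio of 0.027 (0.0154 to 0.0394), Mir125b-2 of -0.012 (-0.053 to 0.029) and Mir125a of -0.014 (-0.038 to 0.010). With library totals in place of TMM, Mir99b had -0.0061 instead, so its direction rests on the scaling.

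In the two-sided conditional exact binomial test with Benjamini-Hochberg adjustment, 4 of 6 members (Mir99a, Mir100, Mir99b and Mir125b-1) were past the threshold of 0.05, all higher in replicate 1, and 0 were higher in replicate 2. That tally rests on the scaling. With library totals, Mir99a and Mir100 were called higher in replicate 1 and Mir125a higher in replicate 2 (log2 ratio -0.047, adjusted p 0.000885 in the exact binomial test), while Mir99b (0.677) and Mir125b-1 (0.158) were not called. Of the 717 genes tested, 19.8% passed, 10% higher in replicate 1 and 9.76% higher in replicate 2. Among the 70 genes at least as high as the lowest member, 78.6% passed, 28 higher in replicate 1 and 27 higher in replicate 2, so the members' count is near what genes of such depth gave. In that exact binomial test the adjusted p was 3.85e-55 for Mir100, 5.79e-05 for Mir99b and 0.00169 for Mir125b-1. For Mir99a the adjusted p was smaller still, too small for the software to hold as an exact value. For Mir125b-2 and Mir125a it was 0.88 and 0.596 in the same exact binomial test. The test compares the reads of these libraries, not conditions. When edgeR's exact test was given a biological coefficient of variation of 10%, it called 0 members and 3 of 717 genes, and 0 members and 31 genes had an unadjusted p under 0.05. The median log2 ratio was 0.051 over the members and -0.036 over all genes tested. The median absolute log2 ratio was 0.051 over the members, 0.105 over the 70 genes of similar or higher level and 0.227 over all genes tested. Mir99a, at 0.19, was above the median of those 70 genes.

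Of the related genes, Mirlet7c-1 had a log2 ratio of 0.16 and Mir351 of 0.18, near that of Mir99a, and Mirlet7a-2 had 0.0044. Mir10a and Mir10b were higher in replicate 2, with log2 ratios of -0.46 (-0.54 to -0.39) and -0.62 (-0.72 to -0.52). Both passed the binomial test but not edgeR's exact test, where the adjusted p was 0.83 and 0.275. No gap between the pools has a replicate check, since each pool is 1 library.

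**Figure D5:**
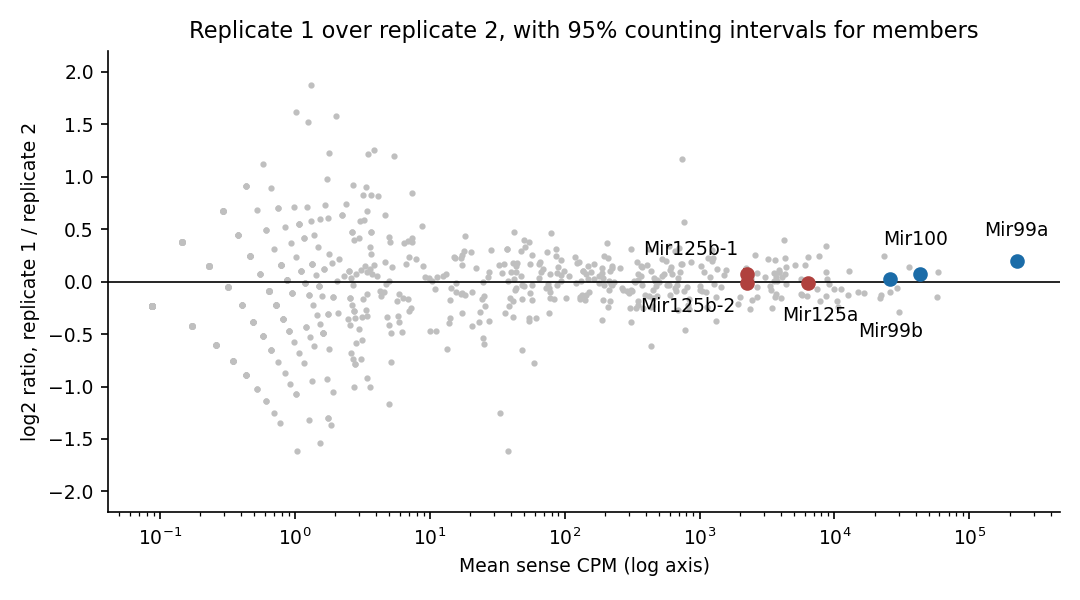
Log2 ratio of replicate 1 over replicate 2 against mean sense CPM (log axis) for the 717 genes with a count; grey points are all genes, coloured points are the members with 95% counting intervals, which lie within the symbols, blue for the miR-99/100 seed and red for the miR-125 seed. All 6 members lie between -0.014 and 0.19.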

How the data were processed

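The authors deposited whole read counts per miRNA gene for each library, without normalization, in 3 columns: without regard to strand, on the gene's strand (sense) and against it. Mapping used mm10 and GENCODE annotation M4, per the deposited readme text. Which aligner and counter were used is not given in the sources used here. Reads with several mapping places, unmapped reads and ambiguous reads (0 in both libraries) were given to no gene in the sense column. So were reads on no gene's sense strand, which include those on a gene's opposite strand. All these stand in 4 rows that name no gene. These rows held 54.6% of reads in replicate 1 and 56.1% in replicate 2 and entered neither library sizes nor tests.

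Identifiers were matched without version to GENCODE M21 on the same assembly, and 1894 of 1973 had a symbol. Positions and hosts came from M21 and mature sequences from RefSeq. CPM, means, SDs and exact Clopper-Pearson intervals were computed in Python 3.11.15 with scipy 1.17.1. Log2 ratios between libraries used TMM scaling of edgeR 4.0.16 in R 4.3.3, with a pseudocount of 1 CPM. Each gene with a count was tested by a conditional exact binomial test with adjustment over all 717 genes. The labels give 1 group, so edgeR's quasi-likelihood test had no contrast to fit. The labels call the libraries biological replicates, and spread over 2 libraries is the only error available. The procedure was tested on simulated counts that held counting error only. Variation between pools was not simulated, so that trial does not cover it.

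Alternatives were other columns, denominators, scalings (DESeq2 1.42.0 size factors, totals, upper quartile), filters, pseudocounts of 0.1 and 10 CPM, gene length and stretches of 18 and 22 bases. Genes named are the members, the let-7 genes of their clusters, genes sharing a seed, Mir10a and Mir10b, the neighbours in rank and genes annotated over the members. Gm25927, marker genes and Mirlet7i as a let-7 leader were chosen after values were seen. The members and lists were chosen with earlier results of these data known. The sequence of the Mir125b-2 gene is not reported here.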

Additional observations from a re-analysis of the deposited data

Results flagged for a closer look

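Reads in the opposite-strand column, which the comparisons of sense counts do not use, were abundant at 1 place in the clusters. Gm25927 on chromosome 17 had a mean of 5740.3 ± 28.3 CPM (SD, n = 2) on its opposite strand, above the floor of 3 counts, and 0 on its sense strand. It was the second highest gene of 1973 in opposite-strand counts and held 25.1% of them in replicate 1 and 23.9% in replicate 2. Among the members, Mir125b-2 had 1 opposite-strand count in each library and the other 5 had 0. The groups are too small for the search for single outlying samples, which needs at least 4.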

How the results depend on the processing

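No paired analysis was possible because the labels give a single group. DESeq2 size factors and upper-quartile scaling kept the direction and the call of each of the 6 members' replicate ratios. The family's share was 30.3% of sense counts, 13.5% of all reads listed, and 10.3% with Mir99a left out of members and denominator. In CPM per base of gene the log2 ratio was 4.22 for Mir100 over Mir125b-1 and 1.98 for Mir99b over Mir125a, and with a pseudocount of 10 CPM Mir100 over Mir125b-1 was 4.269, each further than the replicate SD from the main values of 4.274 and 2.02. edgeR's exact test with a coefficient of variation of 10% called 3 genes in place of 142 and 0 members in place of 4; the wider error it allows is part of its construction. With library totals Mir99b turned to -0.0061 (adjusted p 0.677, exact binomial test), Mir125b-1 was no longer called (0.158) and Mir125a was called (0.000885, log2 ratio -0.047); the shift of library size is 0.033 on the log2 scale. Counts of calls without either replicate could not be fitted, since 1 library remains. Leaving out replicate 1 or 2 gave a family share of 29.1% or 31.6%; with 2 libraries such a change is always smaller than the SD, so it says nothing about stability. Depth does not limit the members, which had at least 7642 counts, but mapping does for both Mir125b genes.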
